A study of Mus musculus with 15 samples.

Results

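Bone morphogenetic protein (BMP) signalling was followed through 9 genes in mouse glioma cells sorted for the side population: the ligands Bmp4 and Bmp7, the receptors Bmpr1a, Bmpr1b and Bmpr2, and the inhibitors of DNA binding Id1, Id2, Id3 and Id4. Every probe set that the array annotation assigns to 1 of these symbols alone was taken, which gave 24 probe sets of 45037 on the array and 9 genes of 18193 with a symbol of their own. BMP ligands bind a complex of type I and type II receptor kinases at the cell surface, which phosphorylates SMAD1, SMAD5 and SMAD9, and these enter the nucleus with SMAD4. The Id genes are among the best known direct targets of those SMADs; their products are helix-loop-helix proteins without a DNA-binding region that sequester E proteins and so hold back the bHLH factors that drive differentiation. In the brain the pathway is known for steering neural stem and progenitor cells towards astrocytes and away from neurons and oligodendrocytes.

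The 15 arrays fall into 5 groups of 3. Side population (SP) cells keep little of a DNA dye because ABC transporters expel it, and the remaining cells are the non-side population (non-SP). Both were sorted from tumorspheres of line 3447, SP cells alone from tumorspheres of line 4346, and both again from untransformed neurospheres. Each tumorsphere line started from 1 brain tumour of a mouse with the S100beta-verbB transgene on a p53-/- or p53+/- background. It was grown in the brains of immunodeficient hosts (strain NOD.Cg-Prkdc scid Il2rg tm1Wjl/SzJ), and tumorspheres were cultured again before the sort. The neurospheres had the same transgene and the same choice of p53 backgrounds. All 5 groups thus carry the verbB oncogene driven by the S100beta promoter, and the sources used here do not say which p53 genotype a given line or neurosphere had. The 3 arrays of a tumour group are 3 host mice of the same line, so their spread does not include that between tumours. The study text takes the neurospheres from 3 independent mice in one place and from injected mice in another. No ages are stated.

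Signals are the authors' MAS5 intensities, on a linear scale with every array set to the same trimmed mean of 500; array medians ran from 40.004 to 89.3. Differences were fitted with limma on quantile-normalized log2(signal + 16) over the 26256 probe sets that exceeded their own array's median on at least 3 arrays, and a call means a Benjamini-Hochberg adjusted p below 0.05 over all of them. On principal component 1, with 45.1% of the variance, the 9 tumour arrays lay apart from the 6 neurosphere arrays. Some arrays stood out: 3447 SP array 3 had a median of 89.3, above all others, and 4346 SP array 3 had a 3' to 5' signal ratio of 5.30 for actin against at most 3.29 elsewhere. Of the 24 member probe sets, 19 were tested. These cover 8 genes, because the probe set of Bmp4 failed the filter. Centring arrays on their medians in place of quantile normalization moved the median difference of all tested probe sets by over 0.1. It became -0.17, against -0.04, for the 3447 SP over the neurosphere SP, 0.08, against -0.07, for the 4346 SP and 0.11, against -0.02, for the 3447 non-SP over its neurosphere group. It became -0.27, against 0.01, for the 3447 SP over the 4346 SP and -0.28, against -0.03, for the 3447 SP over the 3447 non-SP.

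Against neurospheres, the probe sets called lower in tumour cells were all of receptors, and those called higher were of Id genes and Bmp7. In the 3447 SP against the neurosphere SP, 7 of the 19 member probe sets were called, 3 higher and 4 lower, where 15.2% of all tested probe sets were called, 8.01% higher and 7.17% lower. In the 4346 SP against the neurosphere SP, 6 were called, 1 higher and 5 lower, where 19.8% of all were called, 10.2% higher and 9.64% lower. In the 3447 non-SP against the neurosphere non-SP, 8 were called, 3 higher and 5 lower, where 15.2% of all were called, 8.16% higher and 7.00% lower. The members' shares were 36.8%, 31.6% and 42.1% in that order. Counted by gene, each through its probe set with the highest mean, 2 genes were higher and 2 lower of the 8 in the 3447 SP, 1 higher and 2 lower in the 4346 SP, and 2 higher and 2 lower in the 3447 non-SP, since several of the lower probe sets belong to Bmpr1a. With arrays centred on their medians, 0 probe sets were called higher and 2 lower in the 3447 SP, 1 and 1 in the 4346 SP, and 3 and 1 in the 3447 non-SP. The share of all tested probe sets called with centred arrays is not given here. These counts thus do not show whether the members lost more calls than other probe sets. Both SP comparisons use the same 3 neurosphere SP arrays, so they are not independent of each other. In sorted bulk cells, fewer cells that make a transcript and less of it per cell cannot be told apart.

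**Figure D1:**
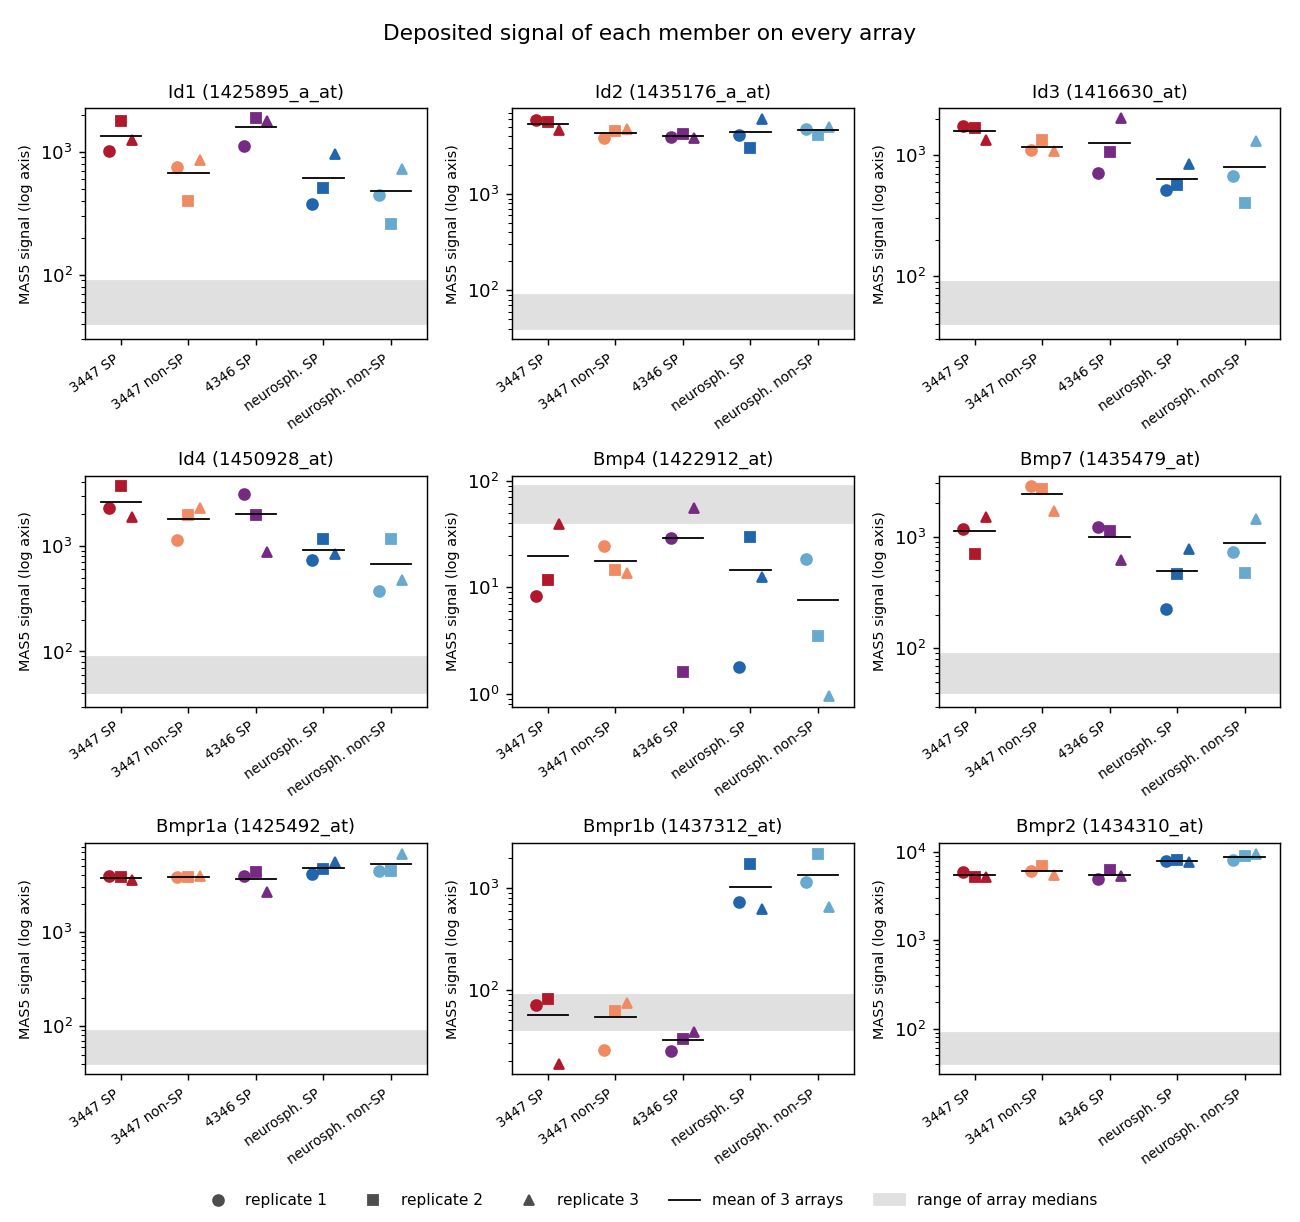
Deposited MAS5 signal (log axis) of the representative probe set of each of the 9 genes in the 15 arrays. Points are arrays, grouped from left to right as 3447 SP, 3447 non-SP, 4346 SP, neurosphere SP and neurosphere non-SP, and bars are group means. The Bmpr1b points of the 9 tumour arrays, 18.7 to 80.7, lie below those of the 6 neurosphere arrays, 632 to 2205, and Bmp4 stays at or under 55.6 throughout.

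The upstream windows of 4 of the members with calls are shown because the pathway acts through DNA sites of known letters: Id3, called higher in the 3447 SP, Id4, called higher in both 3447 groups, and Bmpr1b and Bmpr2, called lower in all 3 tumour groups. They are the 250 bases before the listed start, from RefSeq, build GRCm38.p6, 5′ to 3′ on the gene's strand. Windows were found for 7 of the 9 genes; Id1 and Bmp7 are not shown. Capitals mark GGCGCC, a motif bound by BMP-activated SMADs that is its own reverse complement, or CAGAC and its reverse complement GTCTG, a SMAD4 motif and in the windows shown no motif overlaps another. GGCGCC stood in 9.6% and CAGAC or GTCTG in 42.2% of 32851 such windows of 250 bases.
Id3, chr4:136143572-136143821, plus strand: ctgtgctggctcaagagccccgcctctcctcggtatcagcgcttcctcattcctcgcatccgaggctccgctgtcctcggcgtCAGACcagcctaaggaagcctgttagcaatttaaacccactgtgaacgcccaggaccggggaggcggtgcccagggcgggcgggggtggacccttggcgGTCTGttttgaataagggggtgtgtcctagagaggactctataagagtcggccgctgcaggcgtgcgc
Id4, chr13:48260866-48261115, plus strand: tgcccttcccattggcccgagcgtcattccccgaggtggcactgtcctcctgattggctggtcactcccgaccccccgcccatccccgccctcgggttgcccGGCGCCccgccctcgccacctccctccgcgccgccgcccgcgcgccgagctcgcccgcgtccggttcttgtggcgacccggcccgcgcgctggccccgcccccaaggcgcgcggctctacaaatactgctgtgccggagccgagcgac
Bmpr1b, the most upstream of 3 listed starts, chr3:141982265-141982514, minus strand: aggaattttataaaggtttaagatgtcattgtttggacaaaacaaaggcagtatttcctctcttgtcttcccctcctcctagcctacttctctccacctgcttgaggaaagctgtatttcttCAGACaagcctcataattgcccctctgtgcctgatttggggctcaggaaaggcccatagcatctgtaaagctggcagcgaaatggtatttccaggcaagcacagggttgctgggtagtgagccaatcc
Bmpr2, chr1:59764029-59764278, plus strand: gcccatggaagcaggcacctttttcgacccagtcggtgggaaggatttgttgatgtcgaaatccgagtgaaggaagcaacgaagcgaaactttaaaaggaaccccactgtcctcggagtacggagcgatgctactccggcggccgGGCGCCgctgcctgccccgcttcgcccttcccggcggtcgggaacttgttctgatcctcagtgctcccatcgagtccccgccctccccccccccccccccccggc
Id3 held 2 of the shorter motif and none of the longer one, and Id4 held 1 of the longer one. Bmpr1b held 1 of the shorter motif, which stands in 42.2% of windows, and Bmpr2 held 1 of the longer one. Each motif thus stands before a listed start of a gene with higher calls and of one with lower calls, and a match in letters is a description, not a binding site. The Bmpr1b window shown lies inside the annotated gene, chr3:141837135-142169585, and not before its 5′ end. Of the windows not shown, Id2 and Bmpr1a held 1 GGCGCC each and Bmp4 held neither motif. The second listed start of Bmpr1b held 1 of the shorter motif and the third held neither.

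Among the ligands, Bmp7, a BMP of kidney, eye and brain development, was readily measured. Its brightest probe set (1435479_at) read 1178, 702 and 1510.4 in the 3447 SP, 2841, 2670.2 and 1705 in the 3447 non-SP, 1219, 1128 and 621 in the 4346 SP. Neurospheres read 225, 464 and 780.4 in the SP and 720.2, 467 and 1423 in the non-SP. The 3447 non-SP arrays were the highest of all and did not overlap the neurosphere non-SP, while each SP group overlapped the neurosphere SP. Bmp7 was called higher in the 3447 non-SP than in the neurosphere non-SP, by 1.58 ± 0.45 on the log2 scale (SE, adjusted p = 0.0239 with limma), and so was its probe set 1418910_at, by 1.45 (adjusted p = 0.0394), whose groups overlapped; the third, 1432410_a_at, gave 1.48 (adjusted p = 0.0741) and did not pass. In the SP, the brightest probe set gave 1.22 (adjusted p = 0.0809) for 3447 and 1.04 (adjusted p = 0.116) for 4346, neither of which passed, and the values of the others lay between -0.09 and 0.74. The call of the brightest probe set was lost without 3447 non-SP array 1 or 2 or neurosphere non-SP array 1 or 2 (adjusted p = 0.0909, 0.0817, 0.0730 and 0.117), and that of 1418910_at without the same 4 arrays (0.109 to 0.187) and under 4 other settings. Without neurosphere SP array 3, the highest of its group, both SP differences passed, at 1.62 (adjusted p = 0.0312) for 3447 and 1.44 (adjusted p = 0.0454) for 4346.

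Bmp4, the other ligand and the one best known for driving astrocytic differentiation, could not be tested. Its single probe set read 8.33, 11.7 and 39.6 in the 3447 SP, 24.2, 14.7 and 13.6 in the 3447 non-SP, 29.1, 1.60 and 55.6 in the 4346 SP. Neurospheres read 1.77, 29.8 and 12.5 in the SP and 18.4, 3.52 and 0.948 in the non-SP. It exceeded its array's median on 1 of the 15 arrays. Every group overlapped its neighbours in the order of means, so these signals give no order of groups.

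Bmpr1b, a type I receptor, showed the widest difference of the family. Its tested probe set (1437312_at) read 70.2, 80.7 and 18.7 in the 3447 SP, 25.5, 61.8 and 74.4 in the 3447 non-SP, 24.6, 32.9 and 38.1 in the 4346 SP. In neurospheres it read 740.1, 1734 and 632 in the SP and 1163, 2205 and 659.6 in the non-SP. No tumour array reached the lowest neurosphere array, and the 3 tumour groups overlapped one another. On the log2 scale Bmpr1b was lower by 4.06 ± 0.51 in the 3447 SP (log2 change of -4.06, adjusted p = 3.6e-05), with -4.13 in the 4346 SP (adjusted p = 2.74e-05), both against the neurosphere SP, and -4.08 in the 3447 non-SP against the neurosphere non-SP (adjusted p = 3.04e-05). All 3 calls held in each of 26 alternatives. Tumour signals lay near the array medians, so the size depends on the added constant. The other probe sets of Bmpr1b, 1422872_at and 1443720_s_at, failed the filter with signals of at most 77.0.

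Bmpr2, the type II receptor that BMP ligands recruit beside the type I kinase, was moderately lower. Its brightest probe set (1434310_at) read 5957, 5202 and 5193 in the 3447 SP, 6041, 6904 and 5446 in the 3447 non-SP, 4893, 6246 and 5382 in the 4346 SP. Neurosphere arrays read 7893, 8223 and 7779.8 in the SP and 8105, 8969.7 and 9634 in the non-SP. Every tumour array lay below every neurosphere array. The log2 differences from the matching neurosphere group were -0.47 ± 0.13 (adjusted p = 0.0192) in the 3447 SP, -0.53 ± 0.13 (adjusted p = 0.00691) in the 4346 SP and -0.58 ± 0.13 (adjusted p = 0.00473) in the 3447 non-SP. With arrays centred on their medians none of the 3 was called, at -0.75 (adjusted p = 0.0580), -0.35 (adjusted p = 0.410) and -0.38 (adjusted p = 0.406) in that order; set against the median of all probe sets, the centred differences were -0.58, -0.42 and -0.49, compared with -0.42, -0.46 and -0.56 after quantile normalization. The 3447 SP call was also lost without 3447 SP array 2 or 3 or neurosphere SP array 1 or 2 (adjusted p = 0.0762, 0.0693, 0.0528 and 0.0568), and without both arrays that stand apart (-0.44, adjusted p = 0.0594) and with no trend (0.0978). The dimmer probe sets were not called, 1419616_at with differences between -0.84 and -0.59 and 1441652_at between -1.33 and -0.50. On tumour arrays 1441652_at read 1.05 to 65.7, near background, and it passed the filter mostly through neurosphere arrays.

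Bmpr1a, the other type I receptor and the one widely made in neural progenitors, gave a result that depended on the probe set. The brightest, 1425492_at, read 3964, 3852 and 3537 in the 3447 SP, 3834, 3839 and 3940.1 in the 3447 non-SP, 3928, 4339 and 2647 in the 4346 SP. Neurospheres gave 4118, 4712 and 5548 in the SP and 4409, 4439 and 6806 in the non-SP. It did not pass in any tumour comparison, with log2 differences of -0.29 (adjusted p = 0.323), -0.42 (adjusted p = 0.120) and -0.41 (adjusted p = 0.162) for the 3447 SP, 4346 SP and 3447 non-SP. The next, 1425493_at, read 2537, 2649 and 1826 in the 3447 SP, 2126, 2299 and 1927 in the 3447 non-SP, 3196, 2778 and 2479 in the 4346 SP. Neurospheres gave 5300.45, 3529 and 6475 in the SP and 4523, 3253 and 5439.6 in the non-SP. That probe set had no tumour array as high as any neurosphere array. It was called lower in all 3, by -1.06 ± 0.22 (adjusted p = 0.00293), -0.81 ± 0.22 (adjusted p = 0.0150) and -1.05 ± 0.22 (adjusted p = 0.00320).

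The third Bmpr1a probe set, 1425494_s_at, was called lower in the same 3 comparisons, with -0.97 (adjusted p = 0.0212) in the 3447 SP, -0.94 (adjusted p = 0.0213) in the 4346 SP and -1.30 (adjusted p = 0.00310) in the 3447 non-SP. A further one, 1425491_at, was called in the 4346 SP (-1.04, adjusted p = 0.0447) and the 3447 non-SP (-1.21, adjusted p = 0.0250) and narrowly missed in the 3447 SP (-1.05, adjusted p = 0.0504); 1451729_at was not called and took both signs, between -0.41 and 0.58, and 1445413_at failed the filter. The 5 tested probe sets share 1 source transcript in the annotation, so they are not independent measurements of the gene. For 1425493_at, the 3447 SP call held in each of 25 alternatives, the 4346 SP call was lost without 4346 SP array 3 or neurosphere SP array 1 or 3 (adjusted p = 0.0536, 0.0521 and 0.0782), and both the 4346 SP call and the 3447 non-SP call were lost with centred arrays (-0.63, adjusted p = 0.257, and -0.87, adjusted p = 0.117). For 1425494_s_at, centring ended all 3 calls (adjusted p = 0.0502, 0.219 and 0.0559 for the 3447 SP, 4346 SP and 3447 non-SP), and leaving out both arrays that stand apart ended those of the 3447 SP (0.0506) and the 4346 SP (0.0975). Single arrays ended the 3447 SP call (3447 SP array 3, neurosphere SP arrays 1 and 3, adjusted p = 0.0939, 0.0642 and 0.0978) and the 4346 SP call (4346 SP array 3, neurosphere SP arrays 1 and 3, 0.0953, 0.0599 and 0.0948), and for 1425491_at 18 of 25 alternatives ended the 4346 SP call, while leaving out any 3447 non-SP array or neurosphere non-SP array 3 ended the 3447 non-SP call (0.0647 to 0.123), as did centring (0.133).

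**Figure D2:**
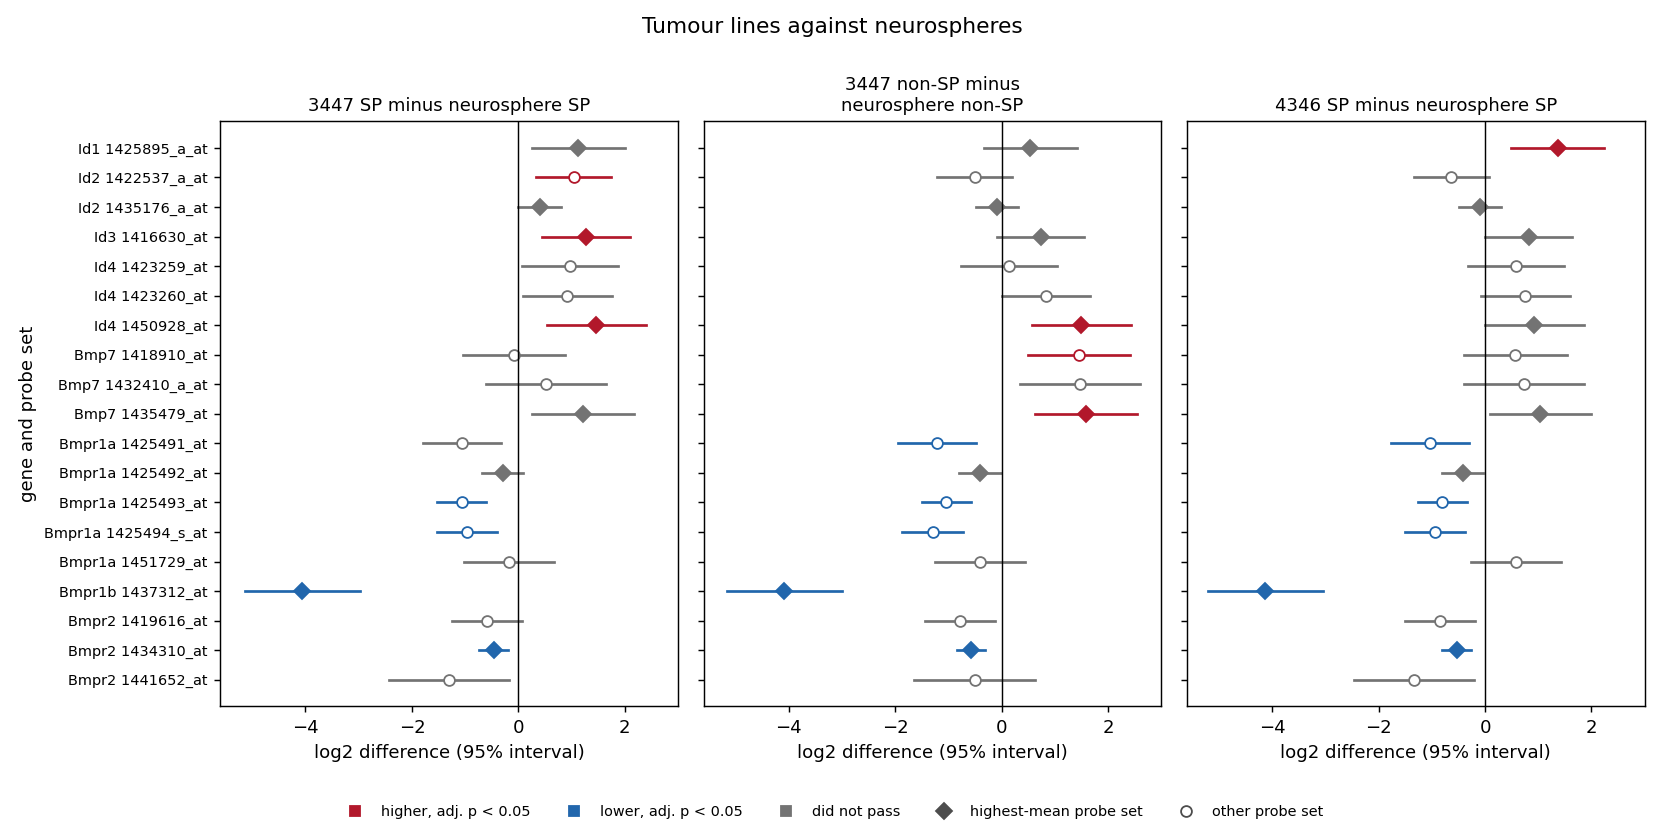
Log2 differences with 95% intervals of the 19 tested member probe sets for the 3447 SP over the neurosphere SP (left), the 3447 non-SP over the neurosphere non-SP (middle) and the 4346 SP over the neurosphere SP (right). Diamonds are the probe set with the highest mean of each gene, circles the others, red is called higher, blue called lower and grey did not pass. Bmpr1b stands far to the left near -4 in each panel, and the Bmpr1a and Bmpr2 probe sets lie mostly left of 0.

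The Id genes, the targets, were called in fewer places. Id1, a target whose product opposes bHLH factors in neural stem cells, read 1012, 1756 and 1236 in the 3447 SP, 749.9, 396 and 854 in the 3447 non-SP, 1114, 1862 and 1783 in the 4346 SP. Neurosphere arrays had 374, 511 and 964 in the SP and 442, 258 and 723 in the non-SP. Both tumour SP groups lay above the neurosphere SP on every array, while the 3447 non-SP overlapped the neurosphere non-SP. Id1 was called higher in the 4346 SP, by 1.37 ± 0.41 (adjusted p = 0.0278), and gave 1.12 ± 0.41 (adjusted p = 0.0797) in the 3447 SP and 0.54 (adjusted p = 0.444) in the 3447 non-SP, which did not pass. The 4346 SP call was lost without 4346 SP array 2 or 3 or neurosphere SP array 1 or 2 (adjusted p = 0.0806, 0.0858, 0.120 and 0.0797), and without both arrays that stand apart (1.26, adjusted p = 0.102). The 3447 SP difference passed without neurosphere SP array 3 (1.49, adjusted p = 0.0306).

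Id3, which often accompanies Id1 in the developing brain, read 1738, 1688 and 1347 in the 3447 SP, 1103, 1331 and 1076 in the 3447 non-SP, 711, 1057 and 2022 in the 4346 SP. It read in neurospheres 515, 562 and 848 in the SP and 669.6, 401 and 1316 in the non-SP. The 3447 SP stood clear of the neurosphere SP, and the 4346 SP, with its array 3 at the top, overlapped it. Id3 was called higher in the 3447 SP, by 1.27 ± 0.39 (adjusted p = 0.0349), and gave 0.82 (adjusted p = 0.149) in the 4346 SP and 0.73 (adjusted p = 0.239) in the 3447 non-SP. Leaving out any 3447 SP array, or neurosphere SP array 1 or 2, ended the call (adjusted p = 0.0994, 0.0855, 0.0659, 0.119 and 0.0942), as did centring arrays (1.11, adjusted p = 0.112) and fitting no trend (0.0577). Leaving out neurosphere non-SP array 3 brought the non-SP difference to 1.18 (adjusted p = 0.0431).

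Id4, known in neural development for regulating the timing of differentiation, was measured by 3 probe sets. The brightest (1450928_at) read 2278, 3699.8 and 1896 in the 3447 SP, 1131, 1964 and 2268 in the 3447 non-SP, 3134, 1952 and 884 in the 4346 SP. Neurospheres showed 735, 1169 and 835 in the SP and 376, 1156 and 476 in the non-SP. The 3447 SP lay above all neurosphere SP arrays, whereas neurosphere non-SP array 2 exceeded the lowest 3447 non-SP array. The log2 differences were 1.46 ± 0.44 (adjusted p = 0.0328) in the 3447 SP and 1.495 ± 0.44 (adjusted p = 0.0289) in the 3447 non-SP, both called, and 0.92 (adjusted p = 0.155) in the 4346 SP, which did not pass. Without 4346 SP array 3, the array with the high actin ratio and the lowest Id4 of its group, the 4346 SP difference passed at 1.40 (adjusted p = 0.0364). The 3447 SP call was lost without 3447 SP array 1 or 2 or neurosphere SP array 1 or 3 (adjusted p = 0.0644, 0.127, 0.110 and 0.0815) and with centred arrays (1.27, adjusted p = 0.0832) or no trend (0.0606), and the 3447 non-SP call without 3447 non-SP array 2 or 3 or neurosphere non-SP array 1 or 3 (0.0952, 0.120, 0.137 and 0.0869) or with no trend (0.0549). The probe sets 1423259_at and 1423260_at were not called, with values between 0.14 and 0.97.

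Id2, which in neural precursors opposes neuronal bHLH factors, gave no call by its brightest probe set. That probe set, 1435176_a_at, read 5898, 5547 and 4611 in the 3447 SP, 3816, 4492 and 4781 in the 3447 non-SP, 3949.9, 4225 and 3812 in the 4346 SP. Neurospheres had 4141, 3025 and 6089 in the SP and 4698, 4144 and 4968 in the non-SP. It was not called in any comparison, with 0.40 (adjusted p = 0.177, 95% interval of -0.0016 to 0.80), -0.10 (adjusted p = 0.764) and -0.09 (adjusted p = 0.816) against neurospheres. A second probe set, 1422537_a_at, read 1880.0, 1954 and 1368 in the 3447 SP, 792, 796 and 671 in the 3447 non-SP, 637, 796 and 277 in the 4346 SP. Neurospheres had 625, 736 and 1131 in the SP and 1423, 776 and 1126 in the non-SP. There the 3447 SP was the high group, above every array of both other SP groups. Its difference from the neurosphere SP was called at 1.04 ± 0.34 (adjusted p = 0.0459), a call that 15 of 25 alternatives ended, among them leaving out any 3447 SP array or neurosphere SP array 1 or 2 (adjusted p = 0.0627 to 0.168). The third, 1453596_at, failed the filter.

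The SP of the 2 tumour lines asked whether the family differs between tumours. Of the 19 member probe sets, 1 was called, and it was higher, where 1.20% of all tested were called, 0.434% higher and 0.769% lower. This was Id2 1422537_a_at, with the signals above, higher in the 3447 SP than in the 4346 SP by 1.67 ± 0.34 (adjusted p = 0.0208). The brightest Id2 probe set gave 0.50 (adjusted p = 0.227, 95% interval of 0.09 to 0.90) and did not pass, although its 3447 SP arrays also lay above all 4346 SP arrays. The call was lost without 3447 SP array 1 or 2 or 4346 SP array 3 (adjusted p = 0.0868, 0.0800 and 0.0723) and without both arrays that stand apart (1.39, adjusted p = 0.0932). For the representative probe sets of the other genes the 95% intervals ran from -1.12 to 0.63 for Id1, -0.37 to 1.27 for Id3, -0.39 to 1.47 for Id4, -0.78 to 1.13 for Bmp7, -0.26 to 0.52 for Bmpr1a, -1.01 to 1.15 for Bmpr1b and -0.20 to 0.34 for Bmpr2.

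SP against non-SP cells of line 3447 asked whether the dye-excluding cells of a tumour differ in the family. Of the 19 probe sets 0 were called with limma, where 0.00381% of all tested were called. An unadjusted p under 0.05 was found for 6 of the 19, among them all 3 of Bmp7, and for 6.92% of all tested. Id1 had its 3 SP arrays, 1012 to 1756, above its 3 non-SP arrays, 396 to 854, with a log2 difference of 1.03 ± 0.41 (adjusted p = 0.675). Id2 1422537_a_at gave 1.19 ± 0.34 (adjusted p = 0.399), without overlap, and the brightest Id2 probe set gave 0.35 (adjusted p = 0.763). Bmp7 pointed the other way on all 3 of its probe sets: the brightest read 702 to 1510.4 in SP arrays and 1705 to 2841 in non-SP arrays, and the differences were -1.12 (adjusted p = 0.675), -1.33 (adjusted p = 0.675) and -1.54 (adjusted p = 0.448), each without overlap. Of these, -1.33 is from 1432410_a_at, which exceeded its array's median on all 3 non-SP arrays but only 1 SP array. Its SP signals, 18.3 to 66.9, were near background. Id3 gave 0.44 (adjusted p = 0.875), without overlap, and the probe sets of Id4 0.56 to 1.02, with overlap. The receptors had values between -0.78 and 0.38. The share of all tested probe sets without overlap in this comparison is not given here. Lack of overlap between 3 and 3 arrays thus adds no support to these differences, none of which was called.

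In neurospheres, the SP against the non-SP gave 0 of 19 called with limma, where 0.0114% of all tested were called, and 0 with an unadjusted p under 0.05, where 4.32% of all had one; every adjusted p was 0.9998. The 95% intervals of the representative probe sets were widest for Bmpr1b, at -1.40 to 0.76 around -0.32, and narrowest for Bmpr2, at -0.48 to 0.05 around -0.21. Id1 gave 0.44 with an interval of -0.43 to 1.32, Id4 0.59 with -0.34 to 1.53 and Bmp7 -0.75 with -1.70 to 0.20. The difference between the SP effect in line 3447 and that in neurospheres was called for 0 of 19 (0% of all tested), with 2 at an unadjusted p under 0.05, where 2.49% of all had one: Id2 1422537_a_at at 1.55 ± 0.47 and Bmp7 1418910_at at -1.54 ± 0.64 (adjusted p = 0.9996 each). Averaged over both origins, 0 of 19 were called (0.0229% of all), with 4 at an unadjusted p under 0.05, where 9.15% of all had one: Id1 at 0.74 (adjusted p = 0.459) and the 3 Bmp7 probe sets at -0.77 to -0.93 (adjusted p of at least 0.376).

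**Figure D3:**
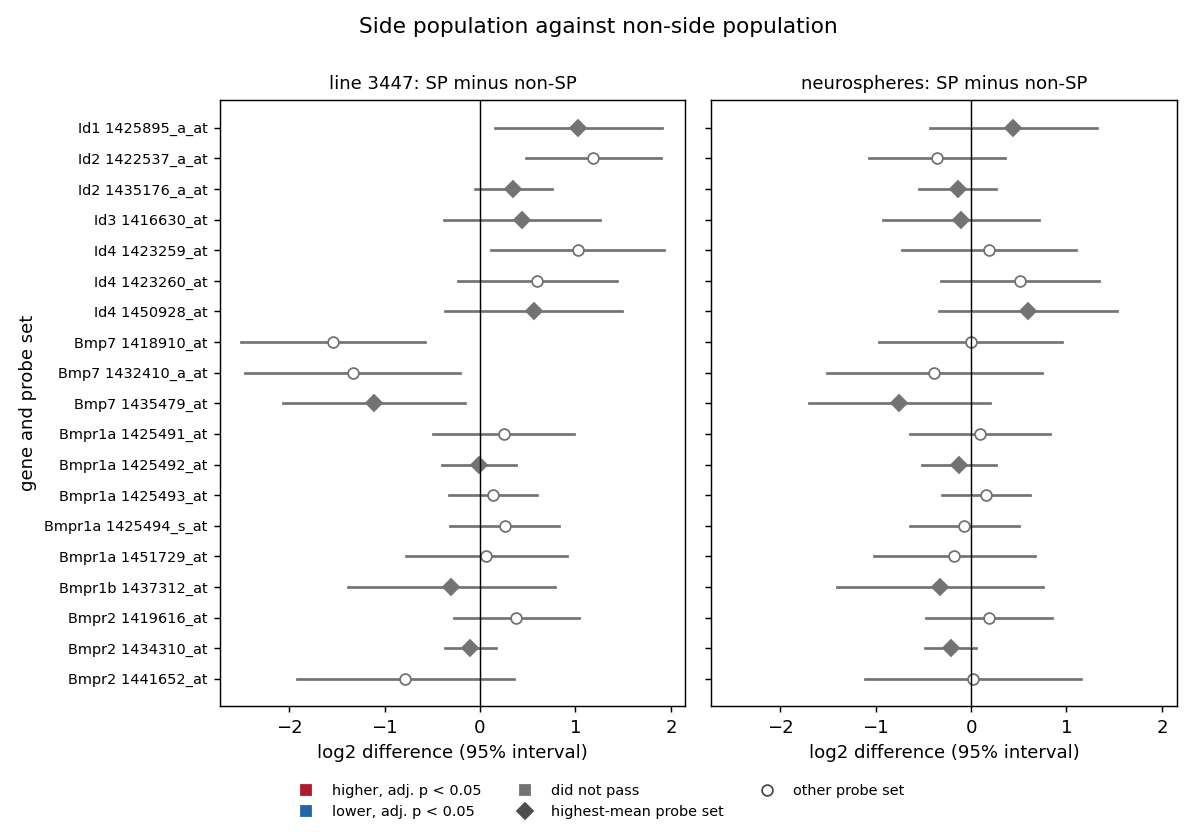
Log2 differences with 95% intervals of the 19 tested member probe sets for SP over non-SP cells, in line 3447 and in neurospheres on the same scale, with symbols as in the plot of tumour against neurosphere. No symbol is coloured because none passed; in line 3447 the Bmp7 intervals lie left of 0 and those of Id1, Id2 1422537_a_at and Id4 1423259_at right of it.

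The rest of the pathway was read from 6 lists, each gene through its brightest probe set. Those lists, like the members, were written with earlier results known, and their counts stand beside a call share of 15.2%, 19.8% and 15.2% over all probe sets in the 3447 SP, 4346 SP and 3447 non-SP comparisons with neurospheres. Of 13 further BMP-type ligands 2 were tested, Bmp2 and Bmp5, and Bmp2 was called higher in the 3447 non-SP than in the neurosphere non-SP, by 2.07 (adjusted p = 0.00906), at 458, 238 and 373 against 74.5, 56.6 and 85.7 in the neurosphere non-SP. Of 8 further receptors and co-receptors 5 were tested. Acvrl1, a type I receptor best known in endothelium, was called higher in all 3 comparisons, with 2.55, 2.65 and 2.73 (adjusted p = 0.000432, 0.000279 and 0.000229). Its signals were 174, 192 and 119 in the 3447 SP, 73.2, 112 and 289 in the 4346 SP and 15.02, 13.99 and 3.33 in the neurosphere SP. All 6 neurosphere arrays read Acvrl1 below their median, so it passed the filter through the tumour groups, and the size depends on the added constant: it ran from 1.44 to 3.80, 1.53 to 3.90 and 1.55 to 4.002 over the alternatives. Rgmb, a co-receptor for BMP ligands, was called higher in the 4346 SP, at 1.15 (adjusted p = 0.0115), and lost the call without 4346 SP array 3 (adjusted p = 0.0530).

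Of 8 SMADs and inhibitors 6 were tested and only Smad7, a feedback inhibitor of receptor-activated SMADs, was called. It was higher in the 3447 SP (1.04, adjusted p = 0.0359) and the 4346 SP (1.07, adjusted p = 0.0263) than in the neurosphere SP, and in the 3447 SP than in the 3447 non-SP (2.37, adjusted p = 0.0290). Averaged over both origins, SP cells were higher than non-SP cells in Smad7 by 1.84 (adjusted p = 0.00438), and in neurospheres alone the difference was 1.31 (adjusted p = 0.664), which did not pass. It read 638, 461 and 417 in the 3447 SP, 105, 91.9 and 40.5 in the 3447 non-SP, 422, 397 and 698 in the 4346 SP and 279, 181 and 217 in the neurosphere SP. Against the neurosphere SP, both calls were sensitive: leaving out any 3447 SP array or neurosphere SP array 2 or 3 gave adjusted p = 0.0520 to 0.134 for 3447, and leaving out 4346 SP array 3 or neurosphere SP array 2 or 3 gave 0.0664 to 0.113 for 4346. Centring arrays ended the 3447 call (0.139), no filter ended both (0.0708 and 0.0518), and the compared groups alone (0.0632) or array weights (0.0626) ended the 4346 call. The 3447 SP against non-SP call was lost without any 3447 SP array, 3447 non-SP array 2 or 3, 4346 SP array 2 or neurosphere SP array 3 (0.0524 to 0.198), with centred arrays (0.107), with no filter (0.0682) and with no trend (0.0674). The median difference of the 6 genes was -0.10 in the 3447 SP, -0.21 in the 4346 SP and -0.20 in the 3447 non-SP, beside -0.03, 0.02 and 0.04 over the 11908 genes tested.

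Of 16 extracellular antagonists and modulators 9 were tested, and Nbl1 and Chrdl1, a pair of secreted BMP antagonists, were called lower in all 3 comparisons. Nbl1 read 4.37, 3.36 and 37.4 in the 3447 SP, 41.7, 5.44 and 11.2 in the 3447 non-SP, 1.96, 3.58 and 6.10 in the 4346 SP. Neurospheres read 500.3, 279.6 and 335 in the SP and 331, 320.5 and 255 in the non-SP. Chrdl1 read 101, 63.4 and 184 in the 3447 SP, 90.1, 66.6 and 43.9 in the 3447 non-SP, 206, 152 and 150.5 in the 4346 SP. Neurospheres read 1054, 1695 and 505 in the SP and 928, 1073 and 521 in the non-SP. No tumour array of either gene reached the lowest neurosphere array. The log2 differences for the 3447 SP, 4346 SP and 3447 non-SP were -3.95, -4.19 and -3.10 for Nbl1 (adjusted p of at most 5.02e-05) and -3.10, -2.38 and -3.26 for Chrdl1 (adjusted p of at most 0.000559), and all 6 calls held in each of 26 alternatives. Nbl1 passed the filter on low signals through the neurospheres, since 8 of its 9 tumour signals lay below their array's median, and the size depends on the added constant. Over the alternatives it ran from -5.37 to -2.57 in the 3447 SP, -5.93 to -2.66 in the 4346 SP and -4.06 to -2.05 in the 3447 non-SP.

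Fewer calls were made for 4 other antagonists. Fst, which encodes follistatin, was lower in the 4346 SP (-3.10, adjusted p = 0.0114, lost without neurosphere SP array 1 or 2 at 0.0523 and 0.0602). It read 3.78, 12.6 and 10.9 in the 4346 SP, near background, and 378, 489.5 and 50.1 in the neurosphere SP. All 3 of the 4346 SP signals and that of neurosphere SP array 3 lay below their array's median. Over the alternatives the Fst difference ran from -4.14 to -2.01. Bmper, an extracellular BMP-binding protein, was also lower in the 4346 SP (-1.46, adjusted p = 0.0475). The Bmper call was ended by 17 of 26 alternatives, among them centred arrays (0.0652) and leaving out 4346 SP array 1 or 3 or neurosphere SP array 2 or 3 (0.0793 to 0.195). Grem1, another secreted antagonist, was higher in the 4346 SP than in the neurosphere SP (1.64, adjusted p = 0.0137) and lower in the 3447 SP than in the 4346 SP (-2.28, adjusted p = 0.0144). It read 17.3, 0.967 and 28.2 in the 3447 SP, 116, 71.4 and 112 in the 4346 SP and 27.2, 18.9 and 28.0 in the neurosphere SP. Only the 3 arrays of the 4346 SP exceeded their array's median, so Grem1 passed the filter through the group where it was high, and its differences are against signals near background. With a constant of 1 neither call passed (adjusted p = 0.154 and 0.115). Both Grem1 calls were lost without 4346 SP array 1 (adjusted p = 0.0508 and 0.0608), and the second also without 3447 SP array 2 or 4346 SP array 3 (0.0628 and 0.0666), both arrays that stand apart (0.0932) or normalization between arrays (0.0701). Twsg1, a binding protein that can both block and release BMPs, was higher in the 3447 SP (0.64, adjusted p = 0.00176), though not with centred arrays (0.34, adjusted p = 0.467). The median of the 9 genes was -0.64, -0.67 and -0.52 in the 3 comparisons with neurospheres, beside -0.03, 0.02 and 0.04 over the 11908 genes tested. Nbl1 and Fst passed the filter mostly through neurosphere arrays, and Grem1 and Chrdl2 through tumour arrays. These medians are thus not a measure of the list as a whole.

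Among 11 further transcription factors known to respond to BMP, 6 were tested and Gata2 was called higher in all 3 comparisons, by 3.32 (adjusted p = 1.21e-05) in the 3447 SP, 1.47 (adjusted p = 0.0115) in the 4346 SP and 3.19 (adjusted p = 1.64e-05) in the 3447 non-SP. It read 614, 849.8 and 1175 in the 3447 SP, 112, 325 and 252 in the 4346 SP and 45.7, 79.4 and 86.9 in the neurosphere SP. It was also higher in the 3447 SP than in the 4346 SP (1.85, adjusted p = 0.0223). The 4346 SP call against neurospheres was lost without 4346 SP array 2 or neurosphere SP array 1 (adjusted p = 0.0542 and 0.0536), and the call between lines without 3447 SP array 2 or 3 or 4346 SP array 1 or 3 (0.0506 to 0.104), without both arrays that stand apart (0.171) or with the compared groups alone (0.0816). Tbx3 (2.38, adjusted p = 0.00907) and Msx1 (1.30, adjusted p = 0.0274) were higher in the 3447 SP; leaving out 3447 SP array 3 ended the Tbx3 call (adjusted p = 0.0517), and leaving out any 3447 SP array or neurosphere SP array 1 or 2 ended that of Msx1 (0.0576 to 0.127), as did 4 other alternatives (0.0553 to 0.0947). Tbx2 was higher in the 4346 SP (1.27, adjusted p = 0.0405) and the 3447 non-SP (1.32, adjusted p = 0.0416), calls that 12 and 10 of 26 alternatives ended. Among these were leaving out 4346 SP array 2 or 3 or any neurosphere SP array for the 4346 SP call (adjusted p = 0.0777 to 0.178). For the 3447 non-SP call they were 3447 non-SP array 2 or 3, neurosphere non-SP array 1 or 2, 4346 SP array 2 and neurosphere SP array 1 (0.05004 to 0.152). All neurosphere signals of Tbx2, 9.46 to 29.3, lay below their array's median, so it passed the filter through the tumour groups. Of the neurosphere arrays, only SP array 3, at 94.6, read Msx1 above its median. Tbx3 read 27.2, 29.4 and 62.2 in the neurosphere SP, of which only the last exceeded its array's median. The Tbx2, Tbx3 and Msx1 differences are thus against signals near background. The medians of the list were 1.20, 0.88 and 1.03. Dlx5, like Tbx2, read below the median of every neurosphere array and passed the filter through tumour arrays, which favours positive list medians. They are thus not a measure of the list as a whole.

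Of 10 bHLH factors that Id proteins oppose, directly or through E proteins, 7 were tested and none was called higher. Tcf4, an E protein gene, was lower in all 3 comparisons, by -0.42, -0.45 and -0.53 (adjusted p of at most 0.000482), though with centred arrays it was not called in any (adjusted p = 0.0719, 0.617 and 0.588). Olig2, which drives the oligodendrocyte lineage, was lower in the 3447 SP (-1.23, adjusted p = 0.0133) and the 4346 SP (-1.07, adjusted p = 0.0250), and Olig1 in the 3447 SP (-1.26, adjusted p = 0.0121). Olig2 read 1616, 1639 and 2601 in the 3447 SP, 3587, 2564 and 1084 in the 4346 SP and 4762, 5384 and 3613 in the neurosphere SP, so its lowest value in line 4346 was array 3, the array with the high actin ratio. Without that array the 4346 SP difference was -0.59 (adjusted p = 0.107), and it was also lost without neurosphere SP array 1 or 2 (0.0688 and 0.0878), with centred arrays (0.116), the compared groups alone (0.0909), no trend (0.0532) or array weights (0.0717). In the 3447 SP, both calls were lost without 3447 SP array 2 or neurosphere SP array 2 and that of Olig2 without 3447 SP array 1 (0.0522 to 0.0667). The medians of the list were -0.82, -0.89 and -0.66. Neurod4 read below the median of every tumour array, and Neurod1 below that of every tumour array except 3447 SP array 3, at 101. Both passed the filter wholly or mostly through neurosphere arrays, which favours negative list medians.

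**Figure D4:**
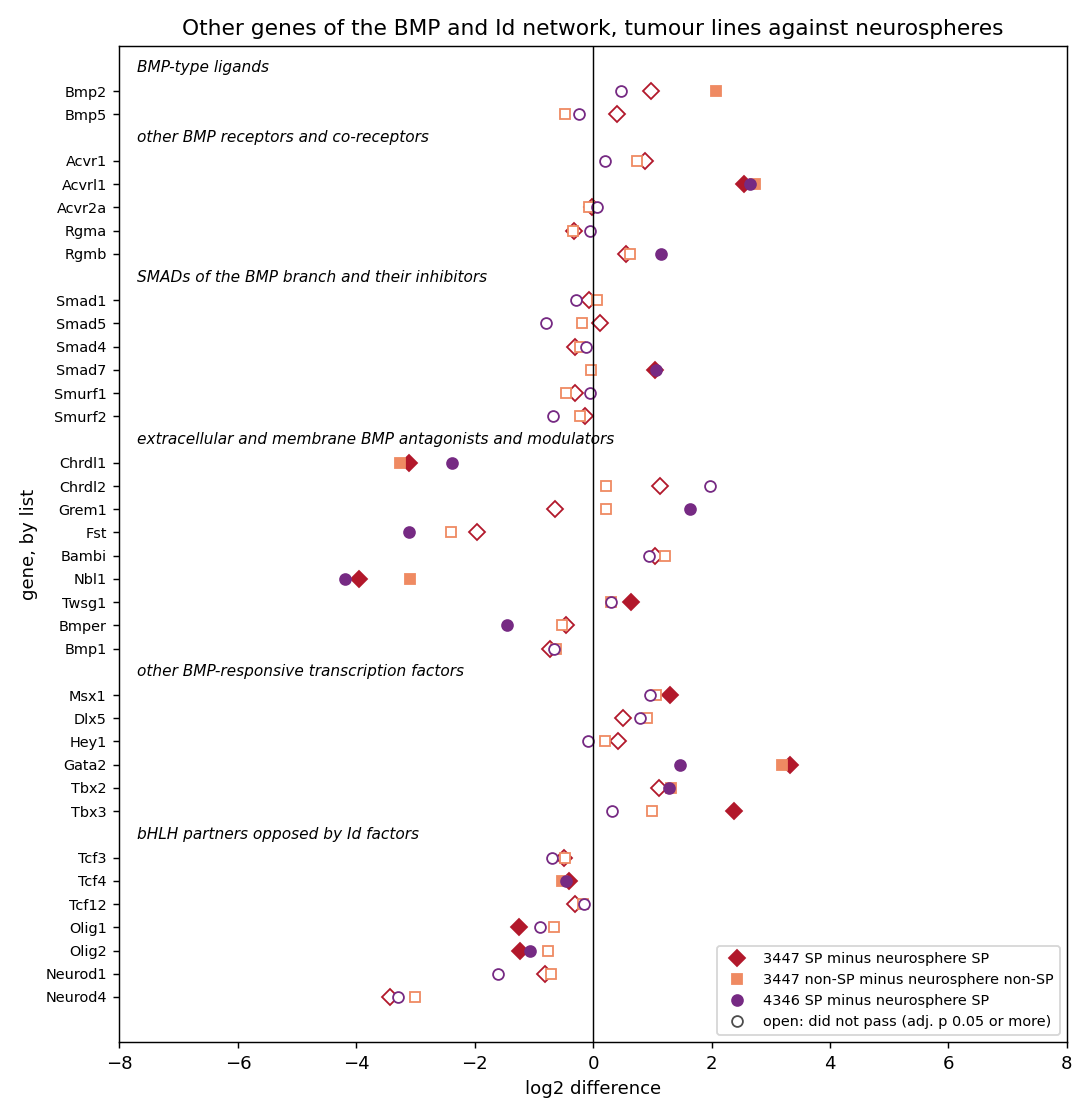
Log2 differences of the tested genes of the 6 pathway lists, each through its probe set with the highest mean, for the 3447 SP over the neurosphere SP, the 4346 SP over the neurosphere SP and the 3447 non-SP over the neurosphere non-SP. Filled symbols passed the threshold and open ones did not; Acvrl1 and Gata2 lie right of 0, and Nbl1 and Chrdl1 far to the left, in all 3 comparisons.

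Markers of other cell types moved with origin as well. Of 5 oligodendrocyte genes with a probe set, the summed signal was 12894 to 17310 on 3447 SP arrays, 16091 to 19732 on 3447 non-SP arrays, 13893 to 19341 on 4346 SP arrays, 3307 to 6818 on neurosphere SP arrays and 3120.2 to 4266 on neurosphere non-SP arrays, with Mog, Mag and Mobp below the array median everywhere. The 6 oligodendrocyte progenitor genes summed to 10405 to 14716 in the 3447 SP, 16296 to 18464 in the 3447 non-SP, 17010.2 to 22640 in the 4346 SP, 6978 to 12165 in the neurosphere SP and 8841 to 11529 in the neurosphere non-SP. Within that list, Sox10 averaged 3123, 3787 and 5818 in the 3447 SP, 3447 non-SP and 4346 SP, and 1.29 and 9.94 in the neurosphere SP and non-SP, while Olig1 and Olig2 had lower means in each tumour group. The 7 astrocyte genes summed to 7026 to 10501 in the 3447 SP, 6364 to 9375 in the 3447 non-SP, 11269 to 14148 in the 4346 SP, 12885 to 30092 in the neurosphere SP and 15228 to 16982 in the neurosphere non-SP. That sum was carried mostly by Slc1a3, Gja1 and S100b, of which S100b went the other way, with means of 4106, 5050.3 and 3773 in the 3447 SP, 3447 non-SP and 4346 SP, and 256 and 205 in the neurosphere SP and non-SP. The 7 pericyte and fibroblast genes summed to 1142 to 3222 in the 3447 SP, 7677 to 8114 in the 4346 SP and 283 to 332 in the neurosphere SP, mostly through Col1a1, while Col1a2 stayed below every array median. All 6 microglia and leukocyte genes stayed below the median of every array in each group, and no endothelial gene exceeded the median on all arrays of any group. Of the 6 neural stem and progenitor genes, Sox2, Vim, Nes, Msi1 and Fabp7 lay above the median of all 15 arrays and Prom1 of 7. Sox2 and Vim had similar means in all groups, and Nes, Msi1, Fabp7 and Prom1 had lower means in each tumour group, as with Prom1 at 20.5, 42.2 and 13.7 in the 3447 SP, 3447 non-SP and 4346 SP, and 573 and 480.4 in the neurosphere SP and non-SP. The part of the moving markers in the differences above was not tested.

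By level, the orders of group means were 4346 SP, 3447 SP, 3447 non-SP, neurosphere SP and neurosphere non-SP for Id1, and the neurospheres before the tumour groups for the 3 receptors. After normalization, neighbours in the order of a gene were separate on all arrays for 1 of 4 pairs of Id1, Id3, Bmp7, Bmpr1a and Bmpr1b, for 2 of 4 pairs of Bmpr2 and for none of Id2, Id4 and Bmp4. No share over all genes stands beside these counts, so nothing particular to the members is read from them. As a description over the 15 arrays, the genes whose log2 profile was most like that of Bmpr1b were Adcyap1r1 (Pearson r = 0.974) and Mir124-2hg (r = 0.967), and those most like Bmpr2 were Kcnj16 (r = 0.951) and Atrnl1 (r = 0.950). Zfp763 (r = 0.931) and Stt3b (r = 0.928) were closest to Bmpr1a, Skap2 (r = 0.902) and Gng12 (r = 0.901) to Bmp7, and Kdelr3 (r = 0.906) and Igsf11 (r = 0.899) to Id1. For Id3 they were Mageh1 (r = 0.892) and Klhl21 (r = 0.892), for Id4 Foxp1 (r = 0.894) and Denn2b (r = 0.858), for Id2 Airn (r = 0.827) and Rbms3 (r = 0.779), and for Bmp4, near background, Tmem266 (r = 0.842) and Mrps33 (r = 0.818). The 15 arrays share 2 origins, so a gene that differs between origins gives a high r with any other that does.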

How the data were processed

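The 15 Affymetrix mouse arrays form 5 groups of 3 by their sample titles. RNA of sorted cells was isolated with the RNeasy Micro kit, amplified with NuGEN's Ovation Pico kit and biotin-labelled, per the labels' protocols. The deposited intensity values are MAS5 signals on a linear scale from Affymetrix Expression Console, per the submitters' processing notes, whose version those notes do not state. Of 45101 probe sets, 64 controls were left out; 34945 carried 1 symbol, 932 several and 9160 none in the platform annotation.

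Array medians differed by 2.23 times, so signals were quantile-normalized before log2(signal + 16), which understates the change of dim genes. limma 3.58.1 in R 4.3.3 fitted 5 group means with a trend of spread on level (10 residual degrees of freedom, two-sided moderated tests, Benjamini-Hochberg over 26256 probe sets). The script was tested on simulated data. There were 8 comparisons; errors of differences are SE, and the number of arrays limits the precision. A gene's representative probe set is the tested one with the highest mean. All 9 members were named, with the other probe sets beside it, and of each list up to 4 called genes with the smallest p in a comparison, also those most like each member (Pearson r, 2 each). The members, lists and markers were chosen with earlier results of these data known.

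Equal replicate numbers deviated together between neurosphere SP and non-SP arrays (r = 0.484, 0.454 and 0.504), which pairs them by the data, and not in line 3447 (r = -0.265, -0.258 and -0.158). Where nothing says otherwise, p-values measure the spread between these arrays. No pair of arrays was a copy (highest Pearson r = 0.974). Alternatives were the scaling, the added constant, the filter, one probe set per gene, the arrays in the fit, the trend, array weights, each array left out and a replicate block.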

Additional observations from a re-analysis of the deposited data

Results flagged for a closer look

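Id2 probe set 1422537_a_at differed between the SP of the 2 tumour lines under the test of that difference, at 1.67 on the log2 scale for the 3447 SP over the 4346 SP (limma, adjusted p = 0.0208). All 3 arrays of the 3447 SP, 1368 to 1954, lay above the 3 arrays of the 4346 SP, 277 to 796, and the lowest of these was array 3, whose actin ratio of 5.30 was the highest of all arrays. Without that array the difference was 1.25 (adjusted p = 0.0723). The brightest Id2 probe set gave 0.50 (adjusted p = 0.227).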

How the results depend on the processing

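Member probe sets called in the 3447 SP over the neurosphere SP numbered 7, against 2 with centred arrays (0 higher, 2 lower), 3 with no trend and 4 of 8 with one probe set per gene, and 2 to 8 with each array left out. For the 4346 SP over the neurosphere SP, 6 became 2 with centred arrays (1 higher, 1 lower) and 3 with one probe set per gene, and 2 to 7 with each array left out. For the 3447 non-SP over the neurosphere non-SP, 8 became 4 with centred arrays (3 higher, 1 lower) and 4 with one probe set per gene, and 4 to 8. For the 3447 SP over the 4346 SP, 1 became 0 with centred arrays, one probe set per gene, the compared groups alone or without both arrays that stand apart, and 0 to 1. The other 4 comparisons stayed at 0 under every alternative run, the replicate block included: SP against non-SP gave 0 in line 3447 and 0 in neurospheres with the block, 0 with neurospheres fitted alone (added after seeing the data), and blocking by number across origins left 6, 5, 8 and 1 calls in the order above, with Id2 1422537_a_at (adjusted p = 0.0551) in the first and Bmpr1a 1425491_at (0.0595) in the second no longer called. The calls over all tested probe sets moved in alternatives too. They were 3987 for the 3447 SP over the neurosphere SP, and 2337 to 4714 in alternatives. For the 4346 SP they were 5210, and 2891 to 5425. For the 3447 non-SP over its neurosphere group they were 3981, and 2310 to 5599. Between the 3447 SP and the 4346 SP they were 316, and 90 to 431. Of the 56 called single results of members and listed genes, 17 kept their call in every alternative, 39 lost it in at least 1 and 0 changed sign. Of the 53 others, 22 changed sign somewhere and 6 passed somewhere. Signs turned with centred arrays for Id2 0.10 (4346 SP over neurosphere SP), Id2 0.078 (3447 non-SP over neurosphere non-SP), Bmp7 -0.21, Bmpr1a -0.31, Bmpr2 -0.40 (3447 SP over 4346 SP), Id2 -0.036 (3447 SP over 3447 non-SP), Bmpr1a -0.29, Bmpr1b -0.016, Bmpr2 -0.37 (SP effect of line 3447 minus that of neurospheres), Id2 -0.058, Id3 -0.017 (SP effect averaged over both origins). They turned without both arrays that stand apart for Bmp7 -0.39, Bmpr1a -0.049 (3447 SP over 4346 SP), Bmpr1a 0.014, Bmpr1b 0.31 (3447 SP over 3447 non-SP), Id4 0.15 (SP effect of line 3447 minus that of neurospheres). They turned with array weights for Bmp7 -0.12 (3447 SP over 4346 SP), Bmpr1a 0.0027 (3447 SP over 3447 non-SP), with a constant of 1 for Bmpr1b -0.090 (3447 SP over 4346 SP), Bmpr1b -0.24 (SP effect of line 3447 minus that of neurospheres) and as deposited for Bmpr2 -0.010 (3447 SP over 4346 SP), Bmpr2 -0.0082 (SP effect of line 3447 minus that of neurospheres). With each array left out, the ranges of those that turned were Id2 -0.33 to 0.15 (4346 SP over neurosphere SP), Id2 -0.16 to 0.018 (3447 non-SP over neurosphere non-SP), Bmp7 -0.12 to 0.50, Bmpr1a -0.077 to 0.27, Bmpr1b -0.35 to 0.68, Bmpr2 -0.017 to 0.16 (3447 SP over 4346 SP), Bmpr1a -0.041 to 0.014, Bmpr1b -0.72 to 0.31, Bmpr2 -0.19 to 0.0056 (3447 SP over 3447 non-SP), Id2 -0.39 to 0.093, Id3 -0.52 to 0.34, Bmpr1a -0.23 to 0.062, Bmpr1b -0.75 to 0.13 (neurosphere SP over non-SP), Id4 -0.51 to 0.28, Bmp7 -0.80 to 0.035, Bmpr1a -0.076 to 0.22, Bmpr1b -0.43 to 0.63 (SP effect of line 3447 minus that of neurospheres), Id2 -0.019 to 0.22, Id3 -0.039 to 0.39, Bmpr1a -0.12 to 0.024 (SP effect averaged over both origins). The cause was not tested. Signals near the array medians, as for Bmp4 and Bmpr1b in tumour cells, limit what these arrays can show, and 3 arrays a group leave wide intervals.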
